A study of Homo sapiens with 6 samples.

Results

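The genes described here encode enzymes that add methyl or acetyl groups to histones, enzymes that remove methyl groups, and subunits of 1 acetyltransferase complex, the NSL complex. They were chosen by symbol, as a list of 51 genes, and a probe set was taken as a member's when the platform annotation gave it that symbol and no other. By this rule 50 of the 51 genes were measured, out of 19775 genes in all, with 166 of the 41091 probe sets that carry a single symbol. ASH1L was not analysed here.

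Histone methyltransferases and acetyltransferases write marks on the tails of the histones around which DNA is wound, and demethylases erase them. Methylation of H3K4 and acetylation accompany active promoters and enhancers, methylation of H3K36 and H3K79 accompanies transcribed gene bodies, and methylation of H3K9 accompanies heterochromatin. The enzymes draw on acetyl-CoA, S-adenosylmethionine, flavin and alpha-ketoglutarate, several of which are made by or exchanged with mitochondria.

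Transcripts were read on HG-U133 Plus 2.0 arrays of Affymetrix, 3 for 10A/143B and 3 for 468/143B cybrids. A cybrid joins the nucleus of a cell without mitochondrial DNA to the mitochondria of an enucleated donor. In the 10A/143B cybrids the mitochondria came from MCF10A, a non-tumorigenic breast epithelial line, and in the 468/143B cybrids from MDA-MB-468, a breast cancer line. Both groups share the nuclear partner, a thymidine-kinase-negative and mitochondrial-DNA-free (p0) form of the osteosarcoma line 143B. Both also share the making of the cells, in which donors treated overnight with actinomycin-D were fused to that partner by polyethylene glycol and hybrids were selected in bromodeoxyuridine without uridine. The labels do not say how many clones stand for each cybrid, and a cybrid with 143B mitochondria that the protocols also name was not analysed here. Each cybrid gave 3 RNA extracts. Nothing says that they came from separate cultures, so p-values reflect only how these arrays scatter, which may be technical.

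The arrays were close in range, with median intensities of 21.7 to 24.4 in 10A/143B and 20.4 to 21.4 in 468/143B. Replicates 2 and 3 lay much nearer to each other than to replicate 1 in both cybrids. For bright genes (mean log2 level over 8), the SD of the difference between replicates 2 and 3 was 0.08 in 10A/143B and 0.09 in 468/143B, against 0.27 to 0.29 for the pairs with replicate 1. Counts over all members, by kind of enzyme and over lists are therefore given for 6 separate arrays and also with replicates 2 and 3 averaged into 1. Counts by class are for 6 arrays unless averaging is named. As for the labelled cells, vimentin (VIM), a mesenchymal filament protein, stood between 7804 and 9027 on all 6 arrays, while the blood marker PTPRC stayed at 22.6 or less and the basal keratin KRT5 at 2.07 or less. The osteoblast gene SP7 stayed at 16.9 or less and the collagen gene COL1A2 at 13.1 or less, so that not every defining marker of the osteosarcoma lineage was present at a clear level. Of 11 epithelial markers measured 4 were lower in 10A/143B and none was higher, with summed intensities of 4980 to 5470 there and 6436 to 7008 in 468/143B. KRT5 was a small part of these sums, so its low level does not stand for the other epithelial markers. Of 11 mesenchymal and osteoblast markers 4 were lower and none was higher, with summed intensities of 11539.7 to 12215 and of 13166 to 14471. Of 8 blood and endothelial markers only PECAM1 passed (0.42 ± 0.13), with summed intensities of 217 to 253 and of 169.6 to 237. By the pass rule given below, 19.9% of all genes were higher and 15.7% lower. With replicates 2 and 3 averaged, 2 epithelial and 3 mesenchymal and osteoblast markers were lower and none was higher. No blood or endothelial marker, PECAM1 included, passed then. Of all genes 13.8% were higher and 8.90% lower with that averaging. The part of these marker shifts in the results below was not tested.

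Each gene was represented by its brightest probe set, and a difference is the 10A/143B mean minus the 468/143B mean of log2(intensity + 16), given with its standard error (SE). A gene passed when limma's adjusted p over all 19775 genes was below 0.05. Among the 50 members, 20 were higher in 10A/143B and 9 were lower, while 21 did not pass. In RNA of whole cultures, fewer cells with a transcript and less of it per cell cannot be told apart. Over all genes 19.9% were higher and 15.7% lower, 35.6% in either direction. In the cybrid where its mean was higher, each of the 50 members lay at or above the median level of the array. KANSL1L and SETD1B lay below it in 468/143B. Among genes that reached that level by the same rule 29.1% were higher and 22.8% lower. With replicates 2 and 3 averaged, 15 members were higher and 7 lower, against 13.8% and 8.90% of all genes (22.7% in either direction). The median difference was 0.26 over the members and -0.02 over all genes. The median over the members was 0.11 after median centring of the arrays and 0.07 after quantile normalization, and the members that passed were then 16 higher and 11 lower, and 17 higher and 11 lower. Over all genes these scalings turned the split of 3929 higher and 3113 lower into 3082 higher and 4174 lower after median centring and 3396 higher and 4032 lower after quantile normalization.

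Of the members that passed, 13 changed by at least 2-fold and were higher in 10A/143B, while none of the 9 lower members reached that size. Of all genes 10.1% passed and changed by at least 2-fold, 7.19% higher and 2.92% lower, so the larger changes leaned to the higher side over all genes too. The count of 0 depended on the scaling: CARM1 was lower by more than 2-fold after median centring (-1.12), after quantile normalization (-1.05) and with the gene length trend removed (-1.09), and KAT5 only just so after quantile normalization (-1.0015). With the mean of all probe sets of a gene 6 members were at least 2-fold higher. On the deposited scale the lower members ranged down to the arginine methyltransferase CARM1 at -0.95 ± 0.10, and the higher members up to the NSL-related gene KANSL1L at 2.78 ± 0.21. In 32 of the 50 members the 6 arrays separated without overlap, as they did in 45.8% of all genes. By kind of enzyme, 11 of 25 methyltransferases were higher and 4 lower, 3 of 12 demethylases were higher and 2 lower, and 5 of 9 acetyltransferases were higher and 3 lower. With replicates 2 and 3 averaged, 9 methyltransferases were higher and 3 lower, and 1 demethylase was higher and 1 lower. Of the acetyltransferases 4 were then higher and 3 lower. The class of NSL subunits added 1 higher gene among 4, KANSL1L, a paralogue of the subunit KANSL1. In that class KANSL1, KANSL2 and KANSL3 did not pass.

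**Figure D1:**
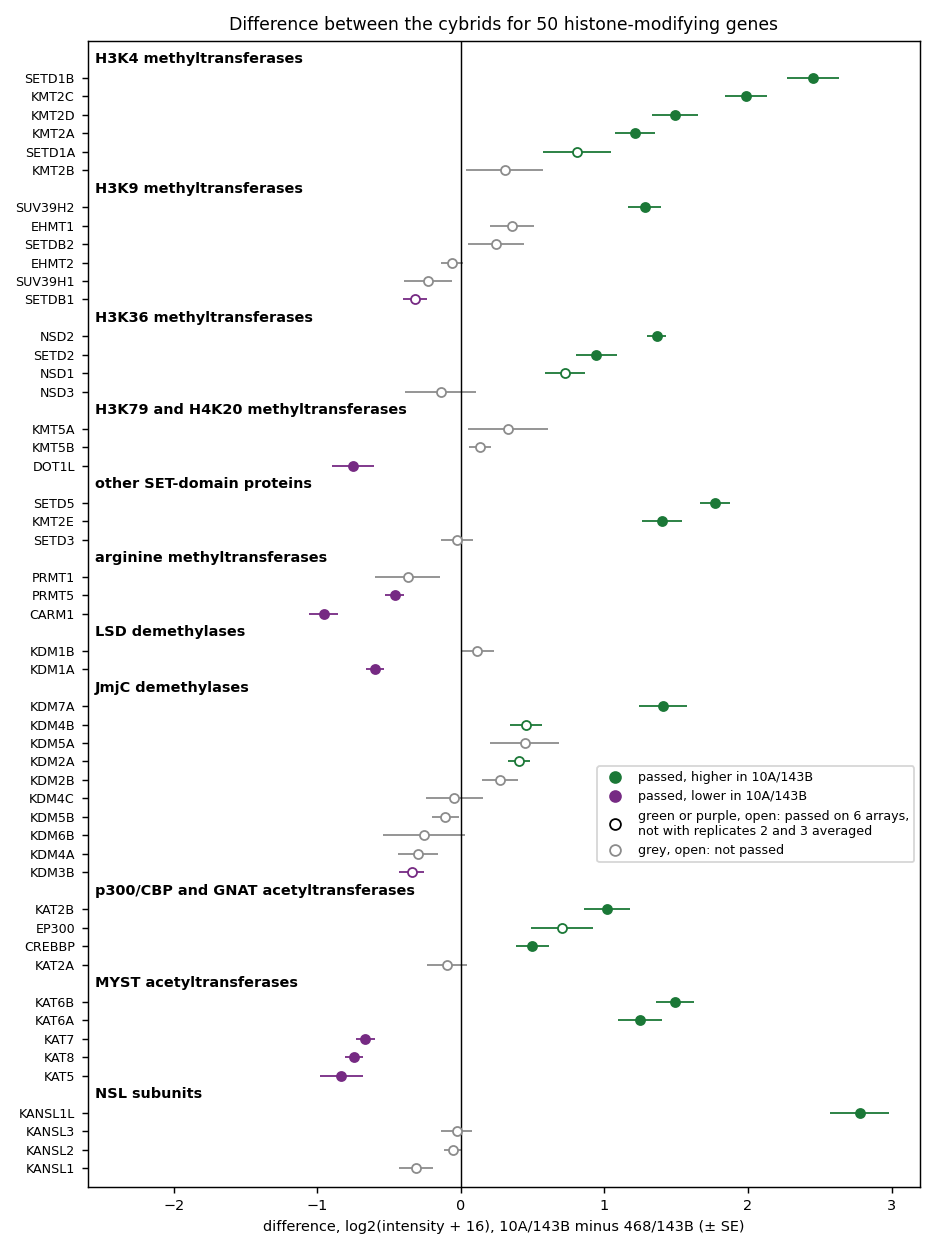
Difference between the cybrids on the log2(intensity + 16) scale for each of the 50 genes, grouped by class, with positive values higher in 10A/143B. Bars are ± 1 SE of the limma fit (n = 3 arrays a group), colour marks the 20 higher and 9 lower genes, and open coloured points mark the 7 that did not pass once replicates 2 and 3 were averaged.

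The promoters of 6 members at the ends of this range show the sequence context in which the changes occurred. The 3 higher and 3 lower members with the largest differences were taken whose passing probe sets went 1 way and which had an entry in the promoter table. Each sequence is RefSeq's, build GRCh38.p14, runs 5′ to 3′ along the gene over 250 bases before and 50 after the first listed start, and has in capitals every match to the GC box (GGGCGG) or the ETS core (CCGGAA) on either strand.
KANSL1L: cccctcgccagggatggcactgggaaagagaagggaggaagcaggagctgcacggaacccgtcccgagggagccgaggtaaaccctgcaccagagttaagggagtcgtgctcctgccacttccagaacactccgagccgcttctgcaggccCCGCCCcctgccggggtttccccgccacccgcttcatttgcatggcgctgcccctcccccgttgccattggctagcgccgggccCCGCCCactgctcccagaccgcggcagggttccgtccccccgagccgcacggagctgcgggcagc
KMT2C: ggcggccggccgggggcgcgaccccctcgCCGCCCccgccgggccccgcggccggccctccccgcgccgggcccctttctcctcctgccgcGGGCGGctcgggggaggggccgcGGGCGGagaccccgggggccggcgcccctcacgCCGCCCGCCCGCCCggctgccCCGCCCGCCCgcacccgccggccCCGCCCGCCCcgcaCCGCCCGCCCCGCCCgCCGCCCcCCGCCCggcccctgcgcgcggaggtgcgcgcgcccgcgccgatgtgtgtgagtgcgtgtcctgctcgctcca
SETD5: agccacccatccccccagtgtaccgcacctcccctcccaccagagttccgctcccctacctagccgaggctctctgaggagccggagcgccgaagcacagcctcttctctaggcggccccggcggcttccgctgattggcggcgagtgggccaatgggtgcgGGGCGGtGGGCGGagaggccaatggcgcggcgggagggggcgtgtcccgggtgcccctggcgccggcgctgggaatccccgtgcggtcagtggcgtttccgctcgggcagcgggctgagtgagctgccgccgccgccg
CARM1: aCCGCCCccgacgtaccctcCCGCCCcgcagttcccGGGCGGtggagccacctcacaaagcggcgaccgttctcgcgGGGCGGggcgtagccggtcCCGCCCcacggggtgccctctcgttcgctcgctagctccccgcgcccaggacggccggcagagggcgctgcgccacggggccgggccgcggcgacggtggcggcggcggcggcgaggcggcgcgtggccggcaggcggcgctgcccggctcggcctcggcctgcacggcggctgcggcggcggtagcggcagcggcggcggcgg
KAT5: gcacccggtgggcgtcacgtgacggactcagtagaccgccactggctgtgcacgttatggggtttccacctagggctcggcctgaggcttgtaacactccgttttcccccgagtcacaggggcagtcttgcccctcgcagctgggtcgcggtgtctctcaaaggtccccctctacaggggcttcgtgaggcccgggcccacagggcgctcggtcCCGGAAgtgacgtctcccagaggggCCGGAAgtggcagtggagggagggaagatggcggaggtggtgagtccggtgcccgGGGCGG
KAT7: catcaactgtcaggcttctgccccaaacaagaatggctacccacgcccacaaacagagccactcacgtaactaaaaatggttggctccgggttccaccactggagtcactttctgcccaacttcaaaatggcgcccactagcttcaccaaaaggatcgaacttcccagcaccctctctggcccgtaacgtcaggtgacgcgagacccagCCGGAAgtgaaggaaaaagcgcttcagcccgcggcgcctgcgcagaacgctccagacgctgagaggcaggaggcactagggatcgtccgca
KANSL1L lies at chr2:210171360-210171659 (minus strand), KMT2C at chr7:152435954-152436253 (minus strand) and SETD5 at chr3:9397365-9397664 (plus strand). CARM1 lies at chr19:10871303-10871602 (plus strand), KAT5 at chr11:65712002-65712301 (plus strand) and KAT7 at chr17:49788431-49788730 (plus strand). The windows of the 3 higher genes held 2 GC boxes in KANSL1L, 15 in KMT2C with overlaps counted, and 2 in SETD5, and no ETS core. Among the 3 lower genes, CARM1 held 5 GC boxes, KAT5 held 1 GC box and 2 ETS cores, and KAT7 held no GC box and 1 ETS core. KMT2C and CARM1, which moved in opposite directions, both had 56 CpG dinucleotides in the window, against a median of 14 over the 27305 genes in the table.

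Over the 45 members with an entry (all but KAT8, DOT1L, SETD1B, NSD3 and KAT6A) the promoters were rich in CpG. Their median was 30 CpG, and 73.3% held a GC box, against 44.6% of all promoters. A GC box was found in 16 of 18 higher members, in 4 of 7 lower members and in 13 of 20 that did not pass. In that order the groups had a median of 36, 23 and 28.5 CpG and of 73.2%, 66.7% and 64.8% G and C bases. The part of base composition in the GC box counts was not tested. The ETS core was found in 24.4% of members and 17.6% of all promoters, namely in 3 higher, 2 lower and 6 other members. The E-box (CACGTG) was found in 15.6% of members and 7.43% of all promoters, the CCAAT box (CCAAT) in 28.9% and 35.7%, and the CRE half-site (TGACG) in 22.2% and 25.0%. Both strands were searched, the half-site can overlap the E-box, and a match is a run of letters, not a binding site.

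Of the 6 H3K4 methyltransferases 5 were higher, none was lower, and the median difference was 1.35. These are the catalytic subunits of the COMPASS family, among which KMT2C and KMT2D monomethylate H3K4 at enhancers and SETD1A and SETD1B write most promoter trimethylation. SETD1B had intensities of 169, 156 and 179.8 on the 10A/143B arrays, against 13.1, 24.6 and 16.2 on the 468/143B arrays, where it lay near the array median. KMT2C had 261, 251 and 232 in 10A/143B, against 43.4, 46.9 and 63.1 in 468/143B. KMT2D had 221, 284 and 256 in 10A/143B, against 64, 98.4 and 79.3 in 468/143B. In none of the 3 genes did the groups overlap. SETD1B was 5.48-fold higher (2.45 ± 0.18, adjusted p = 1.96e-05). The log2 differences of KMT2C (1.99 ± 0.15, adjusted p = 1.96e-05) and KMT2D (1.49 ± 0.16, adjusted p = 0.000131) followed.

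KMT2A, the founding member of the family and a frequent fusion partner in leukaemia, was higher by 1.21 ± 0.14 (adjusted p = 0.000176), but only 3 of its 11 probe sets passed and 5 of the others lay below zero. SETD1A was higher by 0.81 ± 0.23 on 6 arrays (adjusted p = 0.0259) and did not pass with replicates 2 and 3 averaged (adjusted p = 0.116), after median centring (0.0774) or after quantile normalization (0.117). KMT2B, the close relative of KMT2A, did not pass (0.30 ± 0.27, adjusted p = 0.448), and its arrays overlapped.

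Among the H3K9 methyltransferases 1 of 6 was higher and 1 lower, and the median was 0.09, which became -0.06 after median centring and -0.05 after quantile normalization. SUV39H2, which trimethylates H3K9 in pericentric heterochromatin, had 560.3, 481 and 481 in 10A/143B, against 232, 194 and 175 in 468/143B. It was 2.43-fold higher (1.28 ± 0.12, adjusted p = 5.19e-05), and its second probe set passed too, at 1.12. Its paralogue SUV39H1 did not pass (-0.23 ± 0.17). SETDB1, which silences retroelements with the corepressor TRIM28, had 357, 324 and 355 in 10A/143B, against 416, 468 and 422 in 468/143B. That small difference passed on 6 arrays (-0.32 ± 0.08, adjusted p = 0.0143) and not with replicates 2 and 3 averaged (adjusted p = 0.150). EHMT1 and EHMT2, partners in a complex that writes mono- and dimethylation, did not pass (0.35 ± 0.15 and -0.06 ± 0.08), nor did SETDB2 (0.24 ± 0.20).

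Of the H3K36 methyltransferases 3 of 4 were higher, none was lower, and the median was 0.83. NSD2, a dimethyltransferase that is overexpressed by a translocation in multiple myeloma, had 1333, 1428 and 1428 in 10A/143B, against 498, 553 and 549 in 468/143B. Its difference of 1.36 ± 0.07 was far outside the spread of the arrays (adjusted p = 3.86e-06), although 3 of its 6 probe sets did not pass. SETD2, the main enzyme of H3K36 trimethylation, had 194, 219.8 and 249 in 10A/143B, against 91.8, 106 and 124 in 468/143B (0.94 ± 0.14, adjusted p = 0.000875). NSD1, another dimethyltransferase, had 121, 108 and 118 in 10A/143B, against 58.5, 68.1 and 64.4 in 468/143B. NSD1 passed on 6 arrays (0.73 ± 0.14, adjusted p = 0.00343) and narrowly missed with replicates 2 and 3 averaged (adjusted p = 0.0569), though its groups did not overlap.

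NSD3 had no single answer. On its brightest probe set it had 605, 446 and 396 in 10A/143B, against 343, 685 and 613 in 468/143B, which overlapped (-0.14 ± 0.25, adjusted p = 0.722). A second probe set read 369.6, 416 and 385 in 10A/143B, against 73, 76.1 and 85.6 in 468/143B, a difference of 2.11 that passed. In all, 3 of its 7 probe sets were higher (2.11, 1.03 and 0.74), 1 was lower (-0.37), and 3 did not pass.

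The enzymes of H3K79 and H4K20 were few, with none of 3 higher and 1 lower. DOT1L, the H3K79 methyltransferase, had 79.3, 105 and 88 in 10A/143B, against 145, 162 and 184 in 468/143B (-0.75 ± 0.15, adjusted p = 0.00347). A second DOT1L probe set passed in the opposite direction (0.91 ± 0.28), with 35.8, 73.5 and 81.6 in 10A/143B, against 16.7, 27.9 and 31.6 in 468/143B, so DOT1L has no settled direction. KMT5A, which monomethylates H4K20, did not pass (0.33 ± 0.28), its replicate 1 of 10A/143B standing at 955 beside 413 and 443. KMT5B, which adds the further methyl groups, did not pass on its brightest probe set (0.13 ± 0.08), where it read 471, 413 and 431 in 10A/143B, against 383, 413 and 399 in 468/143B. Another KMT5B probe set read 468, 393 and 419 in 10A/143B, against 16.3, 28.1 and 31.6 in 468/143B, the largest difference of any member probe set (3.44 ± 0.17). The third read 107, 81.6 and 75.1 in 10A/143B, against 2.36, 3.41 and 4.99 in 468/143B (2.40 ± 0.19). With the mean of all probe sets KMT5B passed as higher (1.99, adjusted p = 2.65e-05) and DOT1L did not pass, so the class then had 1 higher and none lower. What the probe sets of KMT5B detect differently was not tested.

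Other SET-domain genes, whose own histone methyltransferase activity is weak or absent, were 2 higher of 3. SETD5, mutated in intellectual disability, had 873, 729 and 729 in 10A/143B, against 191, 231 and 229 in 468/143B, and was 3.40-fold higher (1.77 ± 0.10, adjusted p = 7.65e-06). That probe set is of a type that can match more than 1 transcript, and the brightest SETD5 probe set of the other types did not pass (-0.01 ± 0.15, adjusted p over probe sets = 0.978). KMT2E, a reader of trimethylated H3K4, had 929, 798 and 749.6 in 10A/143B, against 239, 335 and 343 in 468/143B (1.40 ± 0.14, adjusted p = 9.25e-05). All 3 KMT2E probe sets were higher. SETD3, an actin histidine methyltransferase, did not pass (-0.03 ± 0.11).

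The arginine methyltransferases among the members went the other way from most lysine methyltransferases that passed, with 2 of 3 lower and none higher. PRMT6, an arginine methyltransferase outside the members, was higher, as given below. CARM1, a coactivator of nuclear receptors that methylates histone H3, had 265, 284 and 309 in 10A/143B, against 498, 609 and 605 in 468/143B. It was 1.94-fold lower (-0.95 ± 0.10, adjusted p = 0.000118). Its only probe set is of the type that can match more than 1 transcript, and without that type 1 of the 2 genes left was lower. PRMT5, the main symmetric dimethyltransferase, had 1193, 1305 and 1342 in 10A/143B, against 1687, 1846 and 1771 in 468/143B (-0.46 ± 0.07, adjusted p = 0.000660), and all 3 of its probe sets were lower. PRMT1, the main asymmetric dimethyltransferase, had 2034, 1305 and 1448 in 10A/143B, against 2896, 1675 and 1722 in 468/143B, and the groups overlapped. It did not pass (-0.37 ± 0.23, adjusted p = 0.260), but within each replicate number 10A/143B was below 468/143B, and with the replicate number as a block PRMT1 passed as lower (adjusted p = 0.00284).

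**Figure D2:**
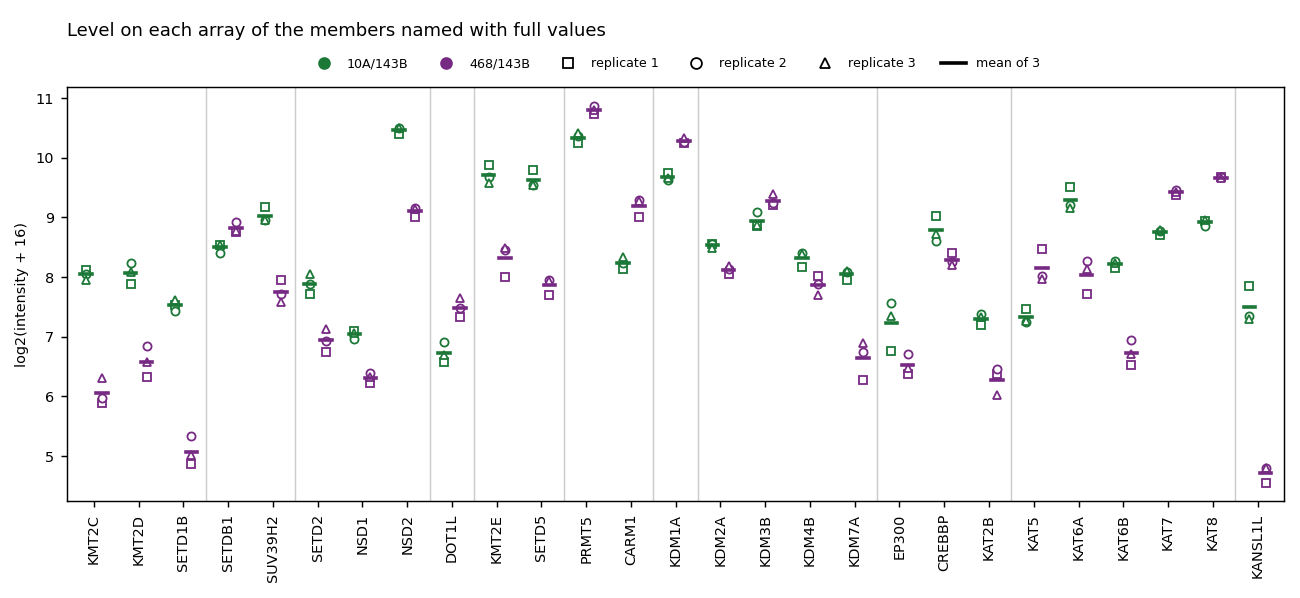
Level on each array, as log2(intensity + 16), of 27 genes that passed, up to 3 higher and 3 lower with the largest change in each class. In each pair 10A/143B stands to the left of 468/143B. Symbols are replicates 1 to 3, bars are means of 3, grey lines part the classes, and levels can be compared between the groups of 1 gene, not between genes.

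Of the 12 demethylases 3 were higher and 2 lower, and the median was 0.03, which became -0.12 after median centring and -0.11 after quantile normalization. KDM1A (LSD1), the flavin-dependent enzyme that removes mono- and dimethylation of H3K4 in corepressor complexes, had 843, 776 and 792 in 10A/143B, against 1193, 1209 and 1278 in 468/143B. It was 1.52-fold lower (-0.60 ± 0.06, adjusted p = 0.000104) and remained so with replicates 2 and 3 averaged (adjusted p = 0.00593). Its relative KDM1B did not pass (0.11 ± 0.11).

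Among the 10 JmjC demethylases, which use iron and alpha-ketoglutarate, 3 were higher and 1 lower, but only KDM7A passed with replicates 2 and 3 averaged. KDM7A, which removes dimethylation of H3K9 and H3K27, had 232, 254 and 259.6 in 10A/143B, against 61.8, 91.1 and 103 in 468/143B. It was 2.65-fold higher (1.41 ± 0.17, adjusted p = 0.000225), while its other probe set did not pass (-0.55 ± 0.44). The class median was 0.11, and it became -0.04 after median centring and -0.03 after quantile normalization.

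The other 3 JmjC genes that passed did so by small amounts. KDM4B, which acts on trimethylated H3K9 and H3K36, had 272, 322 and 317 in 10A/143B, against 242, 221 and 191 in 468/143B (0.45 ± 0.11, adjusted p = 0.0131). KDM2A, an H3K36 demethylase that binds CpG islands, had 359.5, 359.5 and 343 in 10A/143B, against 251, 265 and 274 in 468/143B (0.41 ± 0.08, adjusted p = 0.00350). A second KDM2A probe set passed as lower (-0.85 ± 0.16), with 88.6, 89.3 and 108 in 10A/143B, against 145, 202 and 209 in 468/143B, so KDM2A too has no settled direction. KDM3B, an H3K9 demethylase, had 446, 526 and 452 in 10A/143B, against 572, 588 and 657 in 468/143B (-0.34 ± 0.09, adjusted p = 0.0161), and its second probe set was lower as well. With replicates 2 and 3 averaged the adjusted p of these genes was 0.148, 0.0580 and 0.0803, in the order given.

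The erasers of trimethylated H3K4 and H3K27 did not pass: KDM5A (0.44 ± 0.24), KDM5B (-0.11 ± 0.10) and KDM6B (-0.26 ± 0.29). KDM5A read 247, 237 and 242 in 10A/143B, against 105, 236 and 208 in 468/143B, so that its groups separated by little more than 1 unit at their closest. Another 3 KDM5A probe sets passed as higher (1.85, 0.91 and 0.73). KDM2B (0.27 ± 0.13), KDM4A (-0.30 ± 0.14) and KDM4C (-0.04 ± 0.20) did not pass, although 2 dimmer KDM4C probe sets were higher (1.11 and 0.63).

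The writers of 3 marks were set beside the enzymes that erase them. The H3K4 writers had a median difference of 1.35, with 5 of 6 higher, against 0.11 for 5 H3K4 erasers, of which none was higher and KDM1A was lower. With the mean of all probe sets the H3K4 writers' median was 0.76, with 4 of 6 higher. The erasers' median was then 0.05, with 1 higher and 1 lower, and it was -0.05 after median centring. Without probe sets of the suffixes _x_at and _s_at, which can match several transcripts, KDM1A was no longer measured. The 3 H3K4 erasers left had a median of 0.31, with KDM5A higher (0.91) and none lower, while the writers kept 1.35. For H3K36 the writers' median was 0.83, with 3 of 4 higher, against 0.27 for 5 erasers, with 2 higher. Without the _x_at and _s_at probe sets, the median of the 3 H3K36 writers left was 1.38, above the 1.35 of the H3K4 writers, so the order of these marks is not settled. The H3K36 erasers' median was 0.11 after median centring, with none higher and 1 lower, 0.15 after quantile normalization, with 1 higher and 1 lower, and -0.0038 with the gene length trend removed. None of these erasers passed with replicates 2 and 3 averaged. For H3K9 the writers' median was 0.09, with 1 higher and 1 lower of 6, against -0.04 for 5 erasers, with 2 higher and 1 lower. The H3K9 writers' median became -0.06 after median centring and -0.05 after quantile normalization, and the erasers' -0.20 and -0.21. With the mean of all probe sets the order reversed, at -0.21 for the H3K9 writers and 0.12 for the erasers. It also reversed with replicates 2 and 3 alone, at -0.04 and 0.26, so the order for H3K9 is not settled. KDM4A, KDM4B and KDM4C count as erasers of both H3K9 and H3K36, and KDM2B of both H3K4 and H3K36. These medians are descriptions, and no test was made between writers and erasers.

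**Figure D3:**
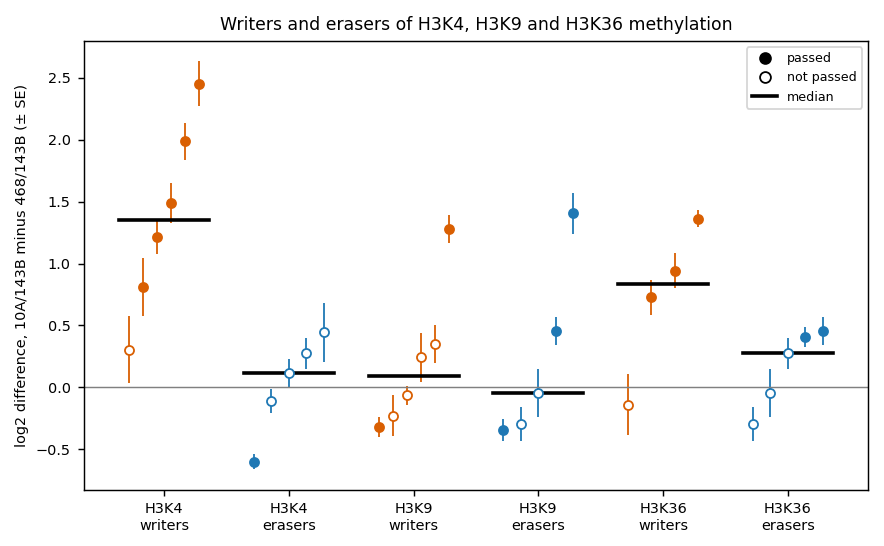
Log2 differences (10A/143B minus 468/143B, ± SE) of the methyltransferases (writers, orange) and demethylases (erasers, blue) of 3 histone H3 marks, with the median of each set as a bar. The medians were 1.35 and 0.11 for H3K4, 0.09 and -0.04 for H3K9, and 0.83 and 0.27 for H3K36, writers first.

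Of the acetyltransferases of the p300/CBP and GNAT families 3 of 4 were higher and none lower, with a median of 0.60. KAT2B (PCAF), the GNAT enzyme that acetylates H3K9 within SAGA and ATAC, had 131, 151 and 144 in 10A/143B, against 66.7, 71.5 and 49.2 in 468/143B. It was 2.03-fold higher (1.02 ± 0.16, adjusted p = 0.00111), while its paralogue KAT2A did not pass (-0.10 ± 0.14). CREBBP, which acetylates H3K27 at enhancers, had 501, 375 and 407 in 10A/143B, against 322, 290.0 and 278 in 468/143B (0.50 ± 0.12, adjusted p = 0.00915). Another CREBBP probe set was higher by 1.61. Its paralogue EP300 had 92.4, 172 and 147 in 10A/143B, against 67.2, 88.6 and 72.5 in 468/143B, with a gap of under 4 units between the groups. EP300 passed on 6 arrays (0.70 ± 0.22, adjusted p = 0.0336) and not with replicates 2 and 3 averaged (adjusted p = 0.188).

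The MYST acetyltransferases split in direction, and all 5 passed, with replicates 2 and 3 averaged as well. Without the _x_at and _s_at probe sets KAT5 was not measured and KAT8 did not pass (-0.74 ± 0.26, adjusted p = 0.0629). Of the 4 genes left 2 were higher and 1 lower, and the class median of -0.67 became 0.29. KAT6B (MORF) had 269, 294 and 286 in 10A/143B, against 76.6, 108 and 88.6 in 468/143B (1.49 ± 0.13, adjusted p = 4.26e-05). KAT6A (MOZ), its paralogue in the same BRPF complexes, had 709, 576 and 553 in 10A/143B, against 195, 292 and 265 in 468/143B (1.25 ± 0.15, adjusted p = 0.000257). Both genes were more than 2-fold higher on the brightest probe set, and a second probe set of each passed the same way. The other probe sets, of 4 for KAT6A and 5 for KAT6B, did not pass. With the mean of all probe sets both genes still passed, at the smaller differences of 0.59 for KAT6A and 0.63 for KAT6B.

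The other 3 MYST enzymes were lower. KAT5 (TIP60), the catalytic subunit of NuA4, had 161, 135 and 138 in 10A/143B, against 340.1, 244 and 236 in 468/143B (-0.83 ± 0.15, adjusted p = 0.00233). All 3 of its probe sets were lower, and each has the suffix _x_at. KAT8 (MOF), which acetylates H4K16 within the MSL and NSL complexes and has also been found in mitochondria, had 478, 449 and 481 in 10A/143B, against 798, 798 and 792 in 468/143B. Its difference was -0.74 ± 0.06 (adjusted p = 3.49e-05). KAT7 (HBO1), which acetylates H3K14 and serves replication origins, had 402, 419 and 428 in 10A/143B, against 648, 689.8 and 671 in 468/143B (-0.67 ± 0.07, adjusted p = 8.26e-05). In each of these genes every 10A/143B array lay below every 468/143B array.

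Of the NSL subunits, KANSL1L stood alone. This paralogue of the scaffold KANSL1 had 215, 147 and 141 in 10A/143B, against 7.52, 12 and 12 in 468/143B, where the levels in 468/143B lay below the array median. It was 6.85-fold higher (2.78 ± 0.21, adjusted p = 1.98e-05), and 1 of its 4 other probe sets passed as higher (0.88 ± 0.27). KANSL2 (-0.06 ± 0.06) and KANSL3 (-0.03 ± 0.11) did not pass. KANSL1 had 288, 388 and 359.5 in 10A/143B, against 391, 443 and 458 in 468/143B, and did not pass (-0.31 ± 0.12, adjusted p = 0.0723), though with the replicate number as a block it passed as lower (adjusted p = 0.0157).

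Probe sets of 1 gene often differed in how much they moved. Of the 166 member probe sets 51 were higher and 18 lower, 41.6% in either direction, against 31.0% of all probe sets (18.6% higher and 12.4% lower). Of the 29 genes that passed, 27 had passing probe sets in the called direction only, 17 had a second probe set passing the same way, and 6 had a single probe set. The exceptions were DOT1L and KDM2A. In 7 genes the brightest probe set did not pass but another did, namely SETDB2, EHMT1, NSD3, KMT5A, KMT5B, KDM4C and KDM5A. Among these the passing probe set was lower in EHMT1 (-0.99) and KMT5A (-0.48) and went both ways in NSD3.

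**Figure D4:**
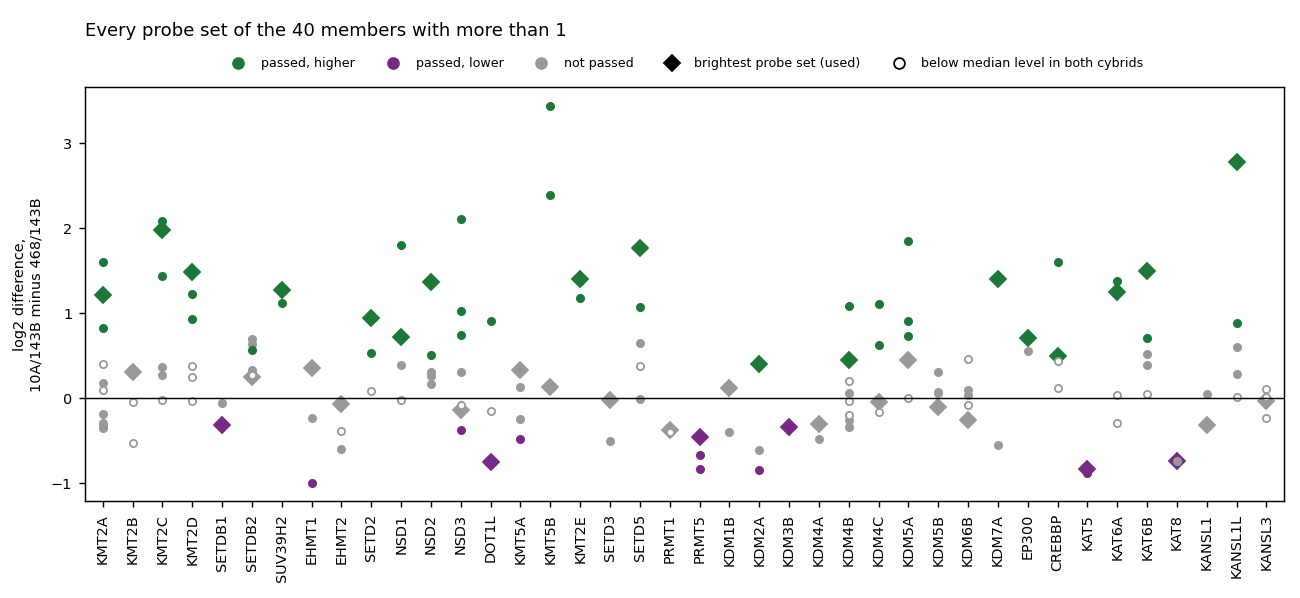
Log2 difference (10A/143B minus 468/143B) of every probe set of the 40 genes with more than 1. Diamonds are the brightest probe sets used for the gene values, green and purple mark probe sets that passed as higher and lower, and open points lay below the median level of the array in both cybrids.

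Most of these enzymes are encoded by long genes, and the differences went with gene length over all genes. With all genes divided by length into 10 classes of equal size, 41 of the 50 members fell in the 5 longest classes, where their median difference was 0.41, and 9 in the 5 shortest, where it was -0.26. Across the members Spearman's rho of the difference with gene length was 0.465, and across 19735 genes it was 0.232; these are correlations across genes, which are not independent replicates. With the trend over all genes removed, 16 members were higher and 12 lower, against 17.9% and 17.6% of all genes, and the members' median became 0.04. CREBBP, EP300, KDM2A and KDM4B no longer passed then, while KANSL1, KDM4A and KDM5B passed as lower. The H3K4 writers kept 5 of 6 higher with a median of 1.19, and the MYST enzymes 2 higher and 3 lower. The 3' to 5' signal ratio of actin, a sign of RNA integrity, was 1.92, 1.74 and 1.59 in 10A/143B, against 1.18, 1.65 and 1.67 in 468/143B. The same ratio of GAPDH was 1.01, 0.97 and 0.93 in 10A/143B, against 0.97, 1.06 and 1.07 in 468/143B. The part of RNA integrity in the length trend was not tested.

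**Figure D5:**
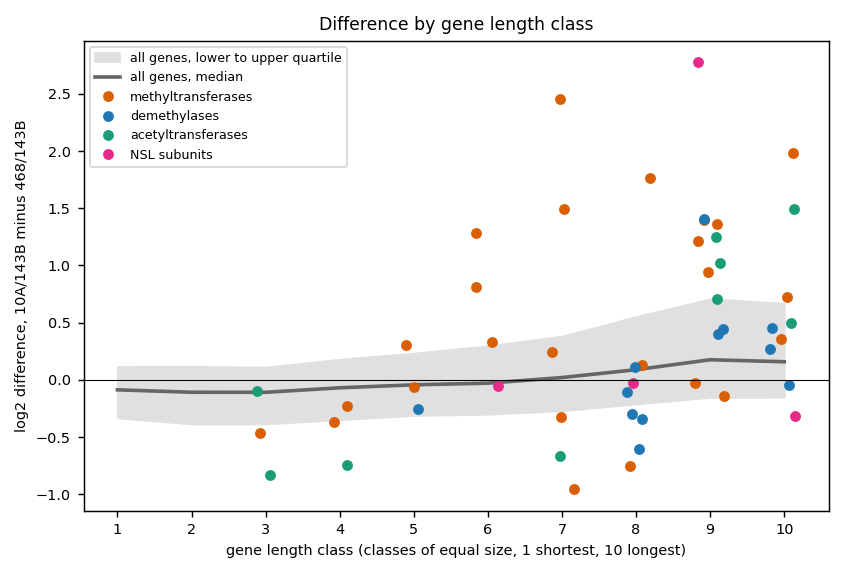
Log2 difference (10A/143B minus 468/143B) of the 50 genes by gene length class, 1 (shortest) to 10 (longest), points spread sideways for legibility. The line is the median of all genes in that class and the band their quartiles; the median over all genes was -0.09 in the shortest and 0.16 in the longest class.

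The genes beside the members on the chromosome were counted as well. Of the 20 measured genes nearest to each of the 20 higher members, 400 counted member by member, 75 were higher and 75 lower, 18.8% each, against 19.9% and 15.7% of all genes. Of the 180 genes nearest to the 9 lower members 10.6% were higher and 22.2% lower. The counts varied widely between members: around KMT2E 9 neighbours were higher and none lower, around SETD1A 1 was higher and 9 lower, and around KMT2D and SETD2 none was higher and 4 were lower. These members were picked out for their counts after the values were seen, and no test was made.

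The partners of these enzymes were read from lists of other genes. Every list count from here on stands beside the share of all genes, 19.9% higher and 15.7% lower. With replicates 2 and 3 averaged these shares were 13.8% and 8.90%. Among genes at or above the median level they were 29.1% and 22.8% on 6 arrays. No list was tested against these shares. Of 15 subunits of the KMT2 and SETD1 complexes 5 were higher and 4 lower, 4 and 2 with replicates 2 and 3 averaged. PSIP1 (LEDGF), which tethers KMT2A to chromatin, had 2034, 2288 and 2385 in 10A/143B, against 929, 982 and 929 in 468/143B (1.22 ± 0.07, adjusted p = 7.36e-06). NCOA6, a subunit of the KMT2C and KMT2D complexes, was higher by 1.16 ± 0.20 (adjusted p = 0.00176). WDR5, the core subunit common to the family and also an NSL subunit, had 82.1, 112 and 121 in 10A/143B, against 259.6, 206 and 252 in 468/143B (-1.08 ± 0.16, adjusted p = 0.000679). Its second probe set passed in the opposite direction (1.13), so WDR5 has no settled direction.

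Around the acetyltransferases, 7 of 17 NuA4 subunits were higher and 4 lower, with 7 and 3 after averaging. They included MBTD1, a methyl-lysine reader, with 141, 172 and 153 in 10A/143B, against 29.2, 32.4 and 37 in 468/143B (1.81 ± 0.16, adjusted p = 4.10e-05). The ATPase EP400 was higher by 1.61 ± 0.25 and the reader ING3 by 0.97 ± 0.23, while KAT5 itself was lower. Of 9 partners of KAT6A, KAT6B and KAT7, 3 were higher and 2 lower, also after averaging. JADE1 (1.79 ± 0.10) and JADE2 (1.75 ± 0.18), scaffolds of KAT7, were higher and ING5 was lower (-1.10 ± 0.15), but each of the 3 had another probe set that passed the opposite way. Of 9 MSL and further NSL subunits 5 were higher and 2 lower, 5 and 1 after averaging. OGT, the O-GlcNAc transferase of the NSL complex, had 996, 1046 and 1075 in 10A/143B, against 452, 488 and 488 in 468/143B (1.10 ± 0.07, adjusted p = 7.69e-06), and the reader PHF20L1 was higher by 1.43 ± 0.12.

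SAGA and ATAC subunits, the partners of KAT2A and KAT2B, were 5 higher and 5 lower of 19, 2 and 5 after averaging. ZZZ3 (1.24 ± 0.12), an ATAC reader, and ATXN7 (1.20 ± 0.17), of the deubiquitinase module, were the most higher, and SGF29, a reader of methylated H3K4, was lower (-0.99 ± 0.11). Among 10 other acetyltransferases 6 were higher and 1 lower, both with and without averaging. CLOCK, the circadian transcription factor with acetyltransferase activity, had 402, 474 and 446 in 10A/143B, against 72.5, 75.1 and 80.4 in 468/143B (2.31 ± 0.10, adjusted p = 2.81e-06). The coactivator NCOA2 (1.34 ± 0.12) and the cohesin acetyltransferase ESCO1 (1.13 ± 0.10) were higher too.

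Other methyltransferases outside the 50 genes gave 5 higher and 6 lower of 19, 3 and 1 after averaging. SETD7 (1.31 ± 0.07), which monomethylates H3K4, and PRMT6 (0.93 ± 0.14), an arginine methyltransferase, were higher, as was METTL4 (1.33 ± 0.11), whose known substrates are nucleic acids. Other demethylases and related oxygenases gave 6 higher and 2 lower of 15, 4 and 2 after averaging, with JMJD1C (1.25 ± 0.21), the ribosomal oxygenase RIOX2 (1.13 ± 0.11) and PHF2 (1.02 ± 0.23) higher. Of 17 readers of acetylated or methylated histones 8 were higher and 2 lower, 7 and 1 after averaging. ZMYND11, a reader of trimethylated H3K36, was higher by 1.01 ± 0.14, PHF6 by 0.84 ± 0.09 and the heterochromatin protein CBX5 by 0.85 ± 0.16, though CBX5 had other probe sets that passed as lower (to -1.35).

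Genes that supply the enzymes' substrates gave 3 higher and 5 lower of 12, 1 and 3 after averaging. MAT2A, which makes S-adenosylmethionine, the methyl donor, had 1771, 1846 and 1898 in 10A/143B, against 545, 455 and 425 in 468/143B (1.92 ± 0.09, adjusted p = 3.26e-06). OGDH, the mitochondrial enzyme that consumes alpha-ketoglutarate, had 141, 121 and 120.3 in 10A/143B, against 461, 377 and 434 in 468/143B (-1.62 ± 0.11, adjusted p = 1.37e-05). Both genes had a second probe set passing the same way. The mitochondrial acetyl-CoA synthetase ACSS1 passed on 6 arrays (0.90 ± 0.25, adjusted p = 0.0225) and not after averaging (adjusted p = 0.134).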

How the data were processed

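RNA of 3 10A/143B and 3 468/143B cybrid extracts was hybridised to Affymetrix HG-U133 Plus 2.0 arrays. The deposited values are linear intensities of probe sets; how the authors summarised, corrected and scaled them is not given in the sources used here, and only the Affymetrix protocol is named per the labels. Intensities ran from 1 to 13125, no detection calls were used, and precision is limited by having 6 arrays. Groups and replicate numbers follow the source names; the cell line label names only the mitochondrial donor.

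Values were taken as log2(intensity + 16), which understates the change of dim genes. Probe sets were named by the platform table, with 41037 symbols updated through Entrez identifiers, 1801 probe sets with several symbols and 11777 without a listed symbol left out, and each gene took the probe set with the highest mean over 6 arrays. The groups were compared across all 19775 genes, and separately across all 41091 probe sets, with limma 3.58.1 in R 4.3.3 (lmFit, eBayes with trend) and Benjamini-Hochberg adjustment. The scripts were tested on simulated data.

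The members and lists were chosen with earlier results of these data known. In each class up to 3 higher and 3 lower genes with the largest change are given with every array, and in each list up to 3 genes. Some members that did not pass are given with every array too. Listed genes without values, among them N6AMT1, KAT14, NCOA3, NAA40, TP63 and BGLAP, were not analysed here. Arrays that share a number deviated together from their group means (correlations of 0.274, 0.225 and 0.210 for numbers 1, 2 and 3), so the number was also fitted as a block; this pairing comes from the data, not from the labels. In all 15 other settings were run, and 2 more were added after the data were seen. Gene order and length classes came from RefSeq's GRCh38.p14 table and no coordinates from it were printed, since the array files name no build; the promoters are from RefSeq's table of the same build, and where it lists several starts of a gene the first was taken.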

Additional observations from a re-analysis of the deposited data

How the results depend on the processing

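The counts of 20 higher and 9 lower members and the medians of methyltransferases (0.33), demethylases (0.03) and acetyltransferases with NSL subunits (-0.03) were recomputed under 15 other settings. Averaging replicates 2 and 3 left 1759 genes lower in all, against 3113. Quantile normalization moved the methyltransferase median to 0.14, the demethylase median to -0.11 and the acetyltransferase and NSL median to -0.11, and median centring moved them to 0.16, -0.12 and -0.19. The mean of all probe sets gave a methyltransferase median of 0.46. Without probe sets of the suffixes _x_at and _s_at, 41 members remained measured, 4 of them lower. The demethylase and the acetyltransferase and NSL medians then became 0.11 and 0.30. Probe sets of the suffix _a_at were kept in that setting. Counting every probe set gave 51 higher and 18 lower among the members, 7662 and 5082 in all, and an acetyltransferase and NSL median of 0.11. Array weights gave 14 lower members and a demethylase median of 0.12, and removal of the gene length trend a demethylase median of -0.16. Replicates 2 and 3 alone, chosen after seeing the data, gave 15 lower members; replicate 1 as a batch term, also added later, gave 22 higher and 12 lower. Leaving out 1 array at a time gave 17 to 19 higher and 8 to 9 lower members, and 3239 to 4539 higher and 2402 to 3522 lower genes in all. The medians then ran from 0.25 to 0.42 for methyltransferases, 0.0013 to 0.087 for demethylases and -0.039 to 0.031 for acetyltransferases with NSL subunits. With the replicate number as a block (paired), 20 members were higher and 11 lower, which added KANSL1 and PRMT1 and changed no other member's call.

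Of the 27 passing members with the largest changes in their class, 3 reversed under 1 alternative each. The mean of all probe sets gave 0.00145 for DOT1L (adjusted p = 0.995) and -0.35 for KDM2A (adjusted p = 0.182). Leaving out the _x_at and _s_at probe sets gave -0.0076 for SETD5 (adjusted p = 0.977). Opposing probe sets of these genes are given above. Among the 27 members a further 37 comparisons with an alternative kept the direction and lost the call, and 521 kept both. NSD3, KMT5B, PRMT1, KANSL1 and KDM5A, which did not pass but are also given with every array, are not in this tally. EP300, KDM4B, SETDB1 and KDM3B lost their call when some single arrays were left out. KDM7A did not pass with the mean of its probe sets (0.43, adjusted p = 0.282), nor KMT2A (0.26, adjusted p = 0.139), nor CREBBP after median centring (0.34, adjusted p = 0.121). Some members not called on the brightest probe set passed as higher with the mean of all probe sets. These were KMT5B (1.99), KDM5A (0.79), NSD3 (0.51) and KDM4C (0.38). No detection calls were used, so the low levels of SETD1B and KANSL1L in 468/143B could not be called background, and their folds rest on the value of 16 added before the log.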
